A study of Mus musculus with 30 samples.

Results

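The libraries described here are 8 of the 10 made from colons at 9 weeks of AOM/DSS, in a series of 30 libraries. They were selected on a measured value, the abundance of S100a8 mRNA, in counts per 1e6 counts on genes (CPM). Within each sex, the 2 libraries with the highest S100a8 and the 2 with the lowest were taken, which gave 4 S100a8-high and 4 S100a8-low colons. The remaining library of each sex lies between the arms and is called the middle library. All mice were wild-type C57BL/6J, 5 to 10 weeks old when treatment began, and each library came from the scraped epithelial layer of a colon. The mice of both arms had been injected once with azoxymethane (AOM), a colon carcinogen, at 10 mg/kg, and had received 3 cycles of dextran sulfate sodium (DSS), which injures the colon lining, at 2.5% in drinking water. They were killed 9 weeks after AOM. Beside them stand 5 females and 5 males given saline vehicle, labelled 9 weeks, and 5 females and 5 males killed 15 weeks after the same AOM/DSS treatment. The arms hold no treatment contrast: high and low colons had the same treatment, and differ in how much S100a8 mRNA their scrapes held.

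S100a8 and S100a9 form calprotectin, a calcium-binding and metal-sequestering protein that fills the cytosol of neutrophils, and fecal calprotectin is measured in the clinic as a sign of intestinal inflammation. Neutrophils enter an injured colon along gradients of CXC chemokines such as Cxcl1, Cxcl2 and Cxcl5, which bind the receptor Cxcr2 on their surface. Once there they release IL-1 and proteases, and macrophages, T cells and IgA-secreting plasma cells follow or accompany them, while the epithelium makes antimicrobial proteins.

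S100a8 was spread over a wide range among mice with the same treatment. Among the females it stood at 27.1 CPM in replicate 4 and 6.24 CPM in replicate 2, the high arm, at 4.52 CPM in the middle library, replicate 1, and at 2.36 CPM in replicate 3 and 0 counts in replicate 5, which allows up to 0.147 CPM, the low arm. Among the males it stood at 14.5 CPM in replicate 2 and 8.28 CPM in replicate 1, at 7.22 CPM in the middle library, replicate 3, and at 1.46 CPM in replicate 4 and 0.878 CPM in replicate 5. The values just inside and just outside the high arm were therefore 6.24 and 4.52 CPM in females and 8.28 and 7.22 CPM in males, and the lower female of the high arm had less S100a8 than the middle male. The vehicle-treated females had 0 counts of S100a8 in each of 5 libraries (a count of 0 allows up to 0.105 to 0.324 CPM by depth), and the vehicle-treated males had 0 to 16 counts.

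The library with no S100a8, female replicate 5, also stood apart in other respects. Its TMM scaling factor, which adjusts a library for the makeup of its counts, was the lowest of the 8 at 0.866, against a highest of 1.05. Hoxb6, a homeobox gene that is more active toward the proximal colon, stood at 69.9 CPM there and at 0.621 to 16.8 CPM in the other 9 libraries of 9 weeks, while Hoxb13, which marks the distal colon, stood at 7.40 CPM there and at 70.2 to 290.5 CPM in the others. Which stretch of colon the scrapes came from is not given in the labels, and its part in the results was not tested. Each median is therefore given with and without that library. Counts on genes in the 10 libraries of 9 weeks ran from 20393766 to 30806392.

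**Figure D1:**
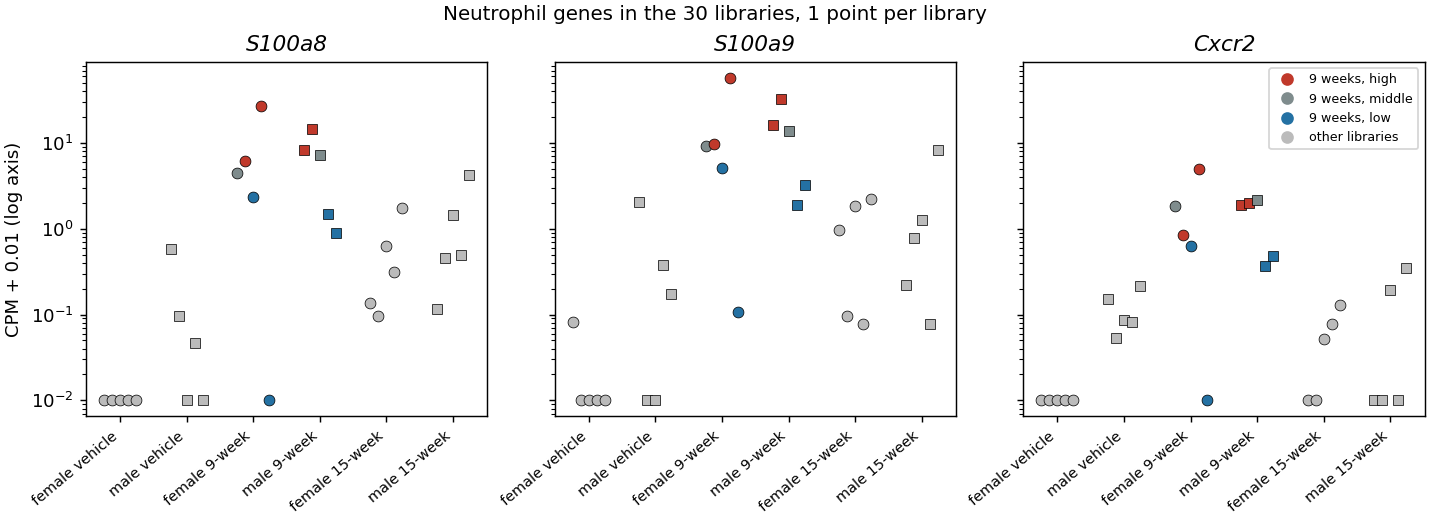
CPM of S100a8, S100a9 and Cxcr2, with 0.01 added and on a log axis, in the 30 libraries by group (circles females, squares males, 1 point per library, no error bars). Red points are the 4 S100a8-high and blue points the 4 S100a8-low libraries of 9 weeks, which run from 6.24 to 27.1 CPM and from 0 to 2.36 CPM of S100a8.

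The label of the arms was checked against other neutrophil genes, which are described without a test because they mark the cells that the selection was meant to find. S100a9, the partner of S100a8 in calprotectin and its neighbour on chromosome 3 of GRCm38 (90692632 to 90695721, minus strand), stood at 57.0 and 9.68 CPM in the high females and 32.5 and 16.3 CPM in the high males. In the low arm it stood at 5.07 and 0.0981 CPM in females and 1.88 and 3.22 CPM in males. Cxcr2, the neutrophil chemokine receptor (chromosome 1, 74153989 to 74161246, plus strand), stood at 4.96 and 0.825 CPM in high females, 1.97 and 1.88 CPM in high males, 0.616 and 0 CPM in low females and 0.357 and 0.476 CPM in low males. The arms did not overlap for either gene, though for Cxcr2 the high female of 0.825 CPM lay close to the low female of 0.616 CPM. Both middle libraries had more Cxcr2 than that high female, and the middle male, at 2.18 CPM, had more than both high males.

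Of 26 neutrophil markers listed, 20 besides S100a8 passed the filter on low counts. Both high libraries lay above both low libraries within both sexes for 17 of the 20, a pattern that 7.43% of all 15623 genes tested showed and that is called separated here. The median log2 difference of high over low was 2.68 over the 20 genes and 2.32 without female replicate 5, beside -0.023 for all genes. Csf3r, the receptor of granulocyte colony-stimulating factor, averaged 12.2 CPM in the high and 1.65 CPM in the low arm, Il1r2, the decoy receptor of IL-1, 6.84 and 0.877 CPM, and Mmp8, the neutrophil collagenase, 0.722 and 0.0527 CPM. Not every listed marker behaved as a neutrophil gene in these scrapes: Cd177 stood at 60.8 to 250.6 CPM in vehicle-treated colons, Pglyrp1 at 112 to 189 CPM and Ly6g at 12.3 to 192 CPM, where S100a8 was at or near 0. These 3 genes supply most of the list's summed level, which ran from 1068 to 1326 CPM in the high arm, from 349 to 905 CPM in the low arm and from 238 to 573 CPM with vehicle. In a bulk scrape, fewer neutrophils and less RNA per neutrophil cannot be told apart, and the same holds for every cell type below.

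The promoter stretches of S100a8 and of Cxcl2, a neutrophil-attracting chemokine described below, are shown because Cxcl2 rose with S100a8 across these colons and lies on another chromosome. Each is the 250 bases before the RefSeq start on GRCm38.p6, 5′ to 3′ on the strand of the gene, S100a8 at chr3:90668821-90669070 (plus strand) and Cxcl2 at chr5:90903649-90903898 (plus strand). Capitals mark matches to motifs searched on both strands.
S100a8: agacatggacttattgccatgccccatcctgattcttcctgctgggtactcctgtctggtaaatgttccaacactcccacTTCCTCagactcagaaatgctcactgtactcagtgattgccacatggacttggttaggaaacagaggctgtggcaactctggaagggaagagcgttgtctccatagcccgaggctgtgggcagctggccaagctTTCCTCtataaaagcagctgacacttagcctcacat
Cxcl2: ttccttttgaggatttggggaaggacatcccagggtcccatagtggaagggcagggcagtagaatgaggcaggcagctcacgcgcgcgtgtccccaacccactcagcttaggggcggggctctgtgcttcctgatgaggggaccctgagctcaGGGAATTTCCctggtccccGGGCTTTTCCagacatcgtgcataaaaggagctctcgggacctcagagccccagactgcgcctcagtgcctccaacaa
The motifs were GGG followed by any 2 bases and TTTCC for NF-kB, TTGCNNAA for C/EBP, TGANTCA for AP-1, GAGGAA for PU.1 and TTCNNNGAA for the gamma-activated site, with N any base. Cxcl2 held 2 NF-kB matches, the first 97 to 88 and the second 78 to 69 bases before the start, and 1.41% of 32851 RefSeq promoter stretches of the same length held any. S100a8 held 2 matches to GAGGAA, which 23.3% of all stretches held. The stretches of S100a9 and Il1b were searched in the same way and are not shown. That of S100a9 held a C/EBP match, and that of Il1b, which also rose with S100a8, held none of these motifs. Such a match is a string of letters and not a measured binding site.

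What else followed S100a8 was asked first of the 4 high against the 4 low colons, with sex as a covariate, in edgeR's quasi-likelihood test. No gene of 15623 was called (0%) at an adjusted p under 0.05, a log2 difference beyond 0.4 and a mean of at least 1 FPKM in an arm. The smallest adjusted p was 0.0823. At an unadjusted p under 0.05 there were 1376 genes, 981 higher (6.28%) and 395 lower (2.53%) in the high arm. DESeq2 on the same libraries called 262 genes higher (1.68%) and 26 lower (0.166%), and edgeR without the filter on low counts 323 higher (1.28%) and 50 lower (0.198%). The separated pattern was found for 1161 genes upward (7.43%) and 244 downward (1.56%) on plain CPM, so that 82.6% of separated genes were upward. With TMM-scaled library sizes it was found for 961 upward and 549 downward, or 63.6% upward, so the balance of the 2 directions depends on the scaling. On plain CPM, all 4 high libraries lay above all 4 low libraries for 825 of the 15623 genes and below them for 109. Arms that do not overlap in single genes are to be read beside these counts.

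When S100a8 was taken as a continuous measure across all 10 libraries of 9 weeks, 500 genes were called, of which 334 rose with it (2.05% of 16260) and the others fell (1.02%). These differences are scaled to the mean gap between the arms, 3.94 on the log2 scale. The count depends on the library without S100a8. Over the 9 libraries without female replicate 5, 53 genes rose (0.334% of 15886) and 8 fell (0.0504%). Called in both fits were 47 genes, which is 9.4% of the 500 genes from 10 libraries and 77% of the 61 from 9. Of the 47, 11 were listed neutrophil markers, and of the other 36 genes 34 rose and 2 fell. Among the 34 were Csf2rb, a shared receptor chain of GM-CSF and IL-3, and Csf2rb2, a receptor chain of IL-3. The 34 also held Tyrobp and Fcer1g, the signalling adaptors of myeloid receptors, Itgb2, the integrin of leukocyte adhesion, Plek, Lcp2, Lyn and Laptm5. Csf2rb stood at 13.2 and 44.2 CPM in high females and 19.1 and 28.5 CPM in high males, against 6.13 and 1.77 CPM in low females and 4.97 and 6.77 CPM in low males. The arms did not overlap, and its log2 difference on the continuous scale was 2.21 with an adjusted p of 0.00133 over 10 libraries and 2.56 with 0.00654 over 9. Steap4, a metalloreductase of inflamed epithelium, was called likewise, at 1.04 (adjusted p = 0.00428) and 1.44 (0.0152). Genes outside the lists were chosen after their values were seen.

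**Figure D2:**
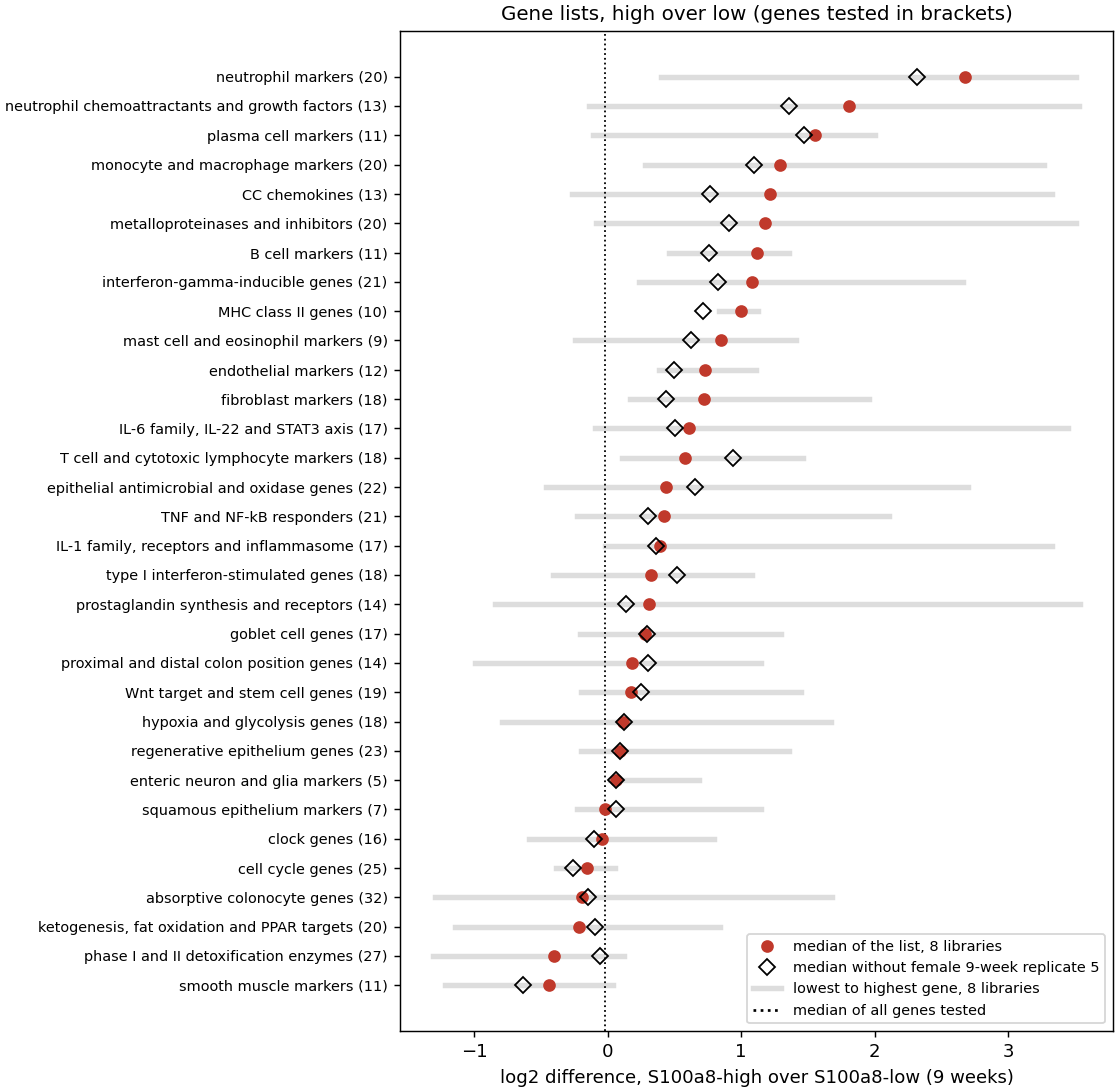
Median log2 difference of S100a8-high over S100a8-low colons at 9 weeks for the 32 gene lists, with the number of genes tested in brackets. Circles are medians over the 8 libraries, diamonds medians without female replicate 5, grey bars the lowest to the highest gene and the dotted line the median of all genes, -0.023. Neutrophil markers (2.68) and neutrophil chemoattractants (1.81) stand highest and smooth muscle markers (-0.44) lowest.

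The chemokines and cytokines that recruit and activate neutrophils stood higher in the S100a8-high colons. Of 16 neutrophil chemoattractants and growth factors, 13 were tested, 8 were separated upward and none downward, with a median log2 difference of 1.81 (1.36 without female replicate 5). Cxcl2, a Cxcr2 ligand, stood at 63.9 and 7.48 CPM in high females and 36.5 and 16.0 CPM in high males, and at 3.30 and 0.0981 CPM in low females and 2.34 and 4.90 CPM in low males. Every high library exceeded every low library, and vehicle-treated colons had at most 0.123 CPM. The log2 difference of Cxcl2 between the arms was 3.53 ± 0.86 (SE) with an adjusted p of 0.208, and Cxcl2 rose on the continuous scale with an adjusted p of 0.00313 over 10 libraries and 0.0291 over 9. C5ar1, the receptor of the complement fragment C5a, averaged 2.71 CPM in the high and 0.783 CPM in the low arm (log2 1.85 ± 0.42, adjusted p = 0.179). Cxcl5, an epithelial Cxcr2 ligand, averaged 8.49 and 3.45 CPM (1.52 ± 0.35, adjusted p = 0.189), and Cxcl1 3.45 and 0.853 CPM (2.01 ± 0.71, adjusted p = 0.406). Il17a, which drives granulocyte production, was scarce, averaging 0.948 CPM in the high and 0.126 CPM in the low arm.

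Within the IL-1 family the differences were larger for Il1b and Il1a than for Il1rn, Il1r1 and Casp1. Il1b stood at 235 and 26.5 CPM in high females, 125.5 and 54.0 CPM in high males, 16.6 and 0.392 CPM in low females and 5.62 and 19.95 CPM in low males. The arms did not overlap, and the middle libraries, at 35.0 and 26.9 CPM, lay above the lowest high library. Il1b had a log2 difference of 3.33 ± 0.96 (adjusted p = 0.281) and rose on the continuous scale (adjusted p = 0.00337 over 10 and 0.0357 over 9 libraries). Il1a averaged 19.4 CPM in the high and 2.37 CPM in the low arm (3.004 ± 1.03, adjusted p = 0.385). Il1rn differed by 0.36 ± 0.16 (adjusted p = 0.578). Il1r1, the signalling receptor, differed by 0.01 ± 0.16 and Casp1, the protease that matures IL-1β, by 0.03 ± 0.14. Over the 17 tested genes of the list 5 were separated upward and none downward, and the median was 0.39 (0.36 without female replicate 5).

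In the IL-6 family Osm and Il6 differed by more than Stat3 and Socs3. Osm, oncostatin M, which leukocytes make and stromal cells receive, stood at 12.04 and 1.42 CPM in high females and 8.001 and 2.69 CPM in high males. In low females it stood at 0.725 and 0 CPM and in low males at 0.195 and 1.21 CPM. Osm rose on the continuous scale (adjusted p = 0.00408 over 10 and 0.0351 over 9 libraries), with a log2 difference between the arms of 3.45 ± 0.97. Il6 averaged 1.22 and 0.127 CPM (3.08 ± 0.90, adjusted p = 0.282), and Osmr, the receptor of oncostatin M, 16.1 and 6.46 CPM (1.35 ± 0.45, adjusted p = 0.371). Socs3, a feedback inhibitor that STAT3 induces, averaged 47.7 and 29.5 CPM, and its arms overlapped. Stat3 itself differed by 0.20 ± 0.13. Of 17 genes tested 5 were separated upward, and the median was 0.61 (0.51 without female replicate 5). Among 21 TNF and NF-kB responders 6 were separated upward, with a median of 0.42 (0.30). Tnfaip2, an endothelial and myeloid TNF target, averaged 23.0 CPM in the high and 6.21 CPM in the low arm (1.89 ± 0.33, adjusted p = 0.148) and rose on the continuous scale with an adjusted p of 0.0154 over 10 and 0.0431 over 9 libraries. Tnf averaged 20.6 and 10.8 CPM (0.88 ± 0.30, and 0.4955 without female replicate 4), and Nfkbia, the NF-kB inhibitor, 94.2 and 67.2 CPM (0.42 ± 0.17).

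**Figure D3:**
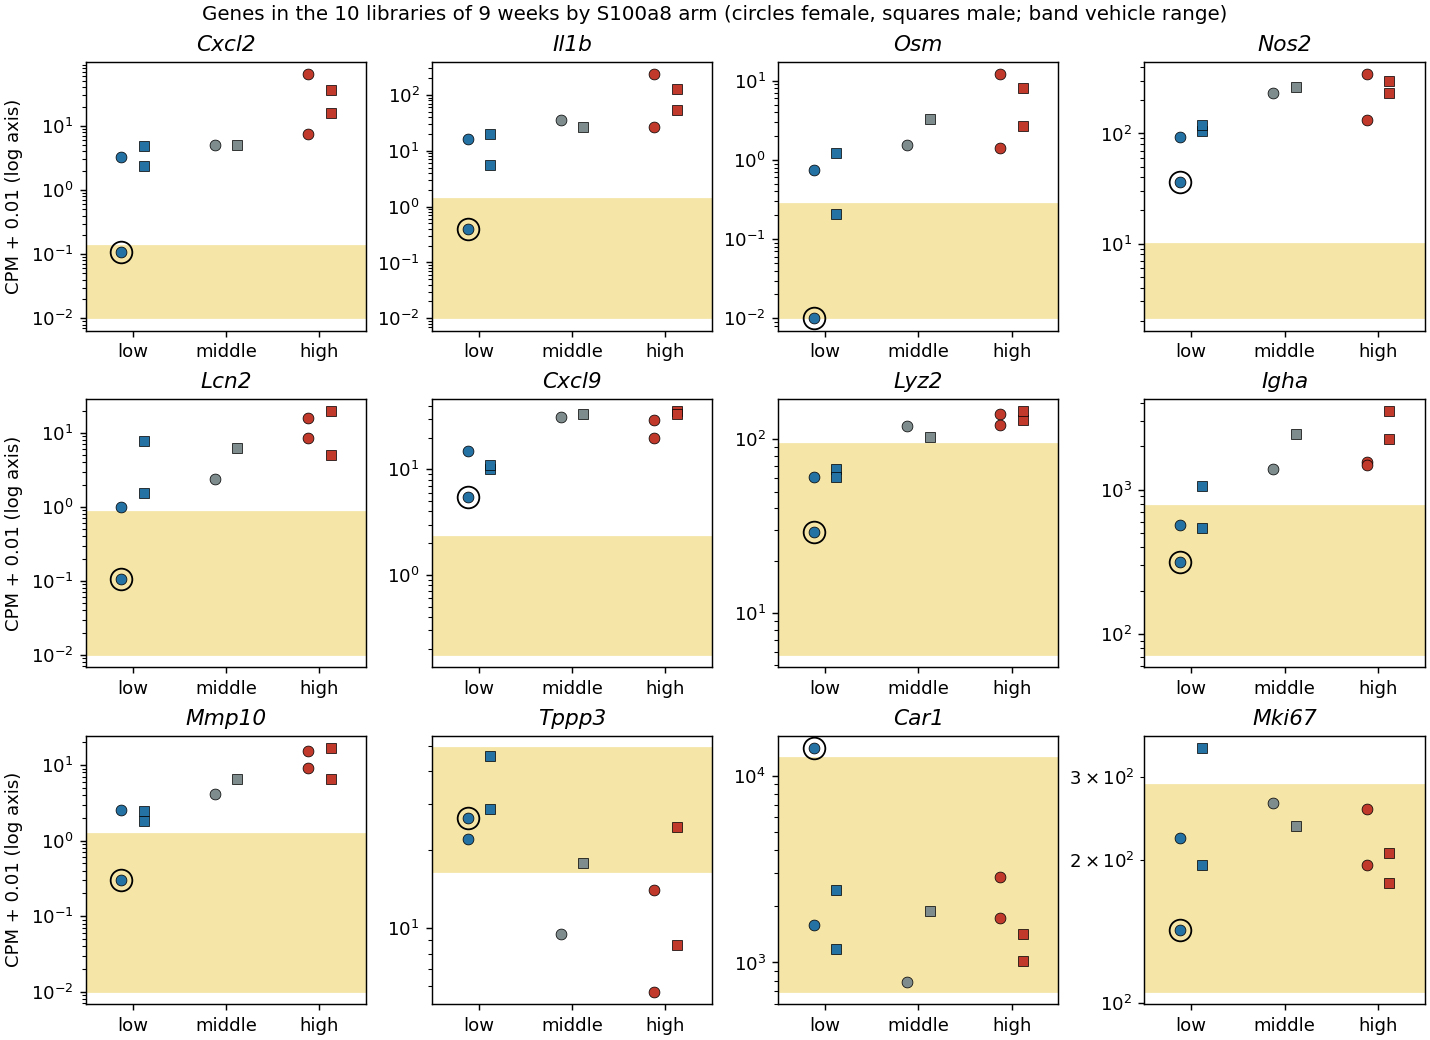
CPM of 12 genes, with 0.01 added and on log axes, in the 10 libraries of 9 weeks by S100a8 arm (circles females, squares males, 1 point per library, no error bars). The yellow band spans the 10 vehicle-treated libraries, and a ring marks female replicate 5. Cxcl2, Il1b, Nos2, Lyz2 and Igha do not overlap between the arms, while Car1 is set apart by the ringed library alone, at 14100 CPM.

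Macrophage genes stood higher in the same colons. Of 23 monocyte and macrophage markers 20 were tested, 18 of them were separated upward and none downward, and the median log2 difference was 1.29 (1.10 without female replicate 5). Lyz2, the lysozyme of myeloid cells, stood at 120 and 140 CPM in high females, 129 and 145.7 CPM in high males, 61.0 and 29.3 CPM in low females and 67.2 and 60.6 CPM in low males, with no overlap. Its log2 difference was 1.25 ± 0.18 with an adjusted p of 0.141, and without female replicate 5 Lyz2 was the only gene called, at 1.09 with an adjusted p of 0.0395. Csf1r, the receptor on which macrophages depend, averaged 17.6 and 6.46 CPM (1.43 ± 0.28, adjusted p = 0.167) and rose on the continuous scale (adjusted p = 0.0014 over 10 and 0.0226 over 9 libraries). Fcgr3, an activating IgG receptor, and Itgax, an integrin of dendritic cells and macrophages, rose likewise. C1qa, a complement chain that resident macrophages make, averaged 16.1 and 7.83 CPM (1.05 ± 0.24), and Arg1, the arginase of alternatively activated macrophages, 7.86 and 2.83 CPM (1.49 ± 0.37). The summed level of the markers ran from 30.5 to 305 CPM in vehicle-treated colons, from 277 to 294 CPM in the high arm and from 63.2 to 153.5 CPM in the low arm. Male vehicle replicate 1 stood apart at the upper end, with 28.4 CPM of Csf1r against at most 13.8 CPM in the other 9 vehicle libraries, and it also held 1534 CPM of the smooth muscle gene Myh11 against at most 35.9 CPM. Among 13 CC chemokines tested 4 were separated upward, and the median of 1.22 became 0.77 without female replicate 5. Ccl3 averaged 7.80 and 0.758 CPM (3.26 ± 1.03, and 2.05 without female replicate 4), and Ccl4, which like Ccl3 attracts monocytes and T cells, 4.02 and 0.371 CPM (3.33 ± 0.69). Of the 2 only Ccl4 was called on the continuous scale both with female replicate 5 (adjusted p = 0.0208) and without it (0.0404).

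Genes that interferon-gamma induces were higher in the S100a8-high arm in 21 of 21 tested, beside 45.5% of all genes. Separated upward were 13 of the 21, and the median of the list was 1.08 (0.83 without female replicate 5). Cxcl9, a T cell chemokine, stood at 29.6 and 19.9 CPM in high females and 35.7 and 33.7 CPM in high males, and at 15.0 and 5.49 CPM in low females and 10.1 and 11.02 CPM in low males, with no overlap. The log2 difference of Cxcl9 was 1.44 ± 0.27 (adjusted p = 0.167), and it was called without female replicate 3, at 1.79 with an adjusted p of 0.0399. Gbp5, a guanylate-binding protein of cell-autonomous defence, averaged 13.8 and 3.27 CPM (2.05 ± 0.48, adjusted p = 0.189), and Cd274, which encodes the checkpoint ligand PD-L1, 37.9 and 20.3 CPM (0.85 ± 0.19, adjusted p = 0.176). Ido1, a tryptophan-degrading enzyme, averaged 102 and 40.9 CPM (1.20 ± 0.35). Interferon-gamma itself was scarce, with Ifng averaging 2.19 and 0.316 CPM. Of 18 type I interferon-stimulated genes 9 were separated upward, with a median of 0.33 (0.52 without female replicate 5). Isg15, a ubiquitin-like effector, differed by 0.75 ± 0.15 and Ifit1 by 0.31 ± 0.21.

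The 10 MHC class II genes were all higher in the high arm, beside 45.5% of all genes, with log2 differences between 0.83 and 1.13, but only 2 were separated. Cd74, the invariant chain, stood at 1416 and 791 CPM in high females, 1831 and 1035 CPM in high males, 1125 and 93.6 CPM in low females and 519 and 773 CPM in low males. The low female of 1125 CPM exceeded 2 of the 4 high libraries, and the lowest value came from female replicate 5. H2-Ab1 averaged 346.5 and 165.9 CPM (1.01 ± 0.48, adjusted p = 0.608). Vehicle-treated colons had 10.95 to 137 CPM of Cd74, and no library of 9 weeks other than female replicate 5 lay within that range. Without that library the median of the list was 0.72 in place of 1.0.

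Epithelial defence genes were mixed. Nos2, the inducible nitric oxide synthase, stood at 344 and 132.5 CPM in high females and 301 and 234 CPM in high males, and at 92.3 and 36.5 CPM in low females and 106 and 120.3 CPM in low males. It did not overlap between the arms, and vehicle-treated colons had 2.09 to 9.94 CPM. The log2 difference of Nos2 was 1.51 ± 0.34 (adjusted p = 0.176), and it rose on the continuous scale with an adjusted p of 0.00282 over 10 and 0.0346 over 9 libraries. Lcn2, lipocalin 2, a siderophore-binding protein used like calprotectin as a fecal marker, averaged 12.2 and 2.58 CPM (2.69 ± 0.87, adjusted p = 0.347). Its arms overlapped, since low male replicate 4 had 7.69 CPM and high male replicate 2 had 5.01 CPM. Slpi, an inhibitor of neutrophil elastase, averaged 23.2 and 6.01 CPM (1.98 ± 0.62). The C-type lectin Reg3g, which kills Gram-positive bacteria, ranged from 116 to 712 CPM in the high arm and from 45.6 to 527 CPM in the low arm, with no order between them. Duox2, the hydrogen peroxide-generating oxidase, averaged 859 and 659 CPM (0.30 ± 0.17), with 97.5 to 431 CPM in vehicle-treated colons. Of 22 genes tested 7 were separated upward, with a median of 0.44 (0.65 without female replicate 5).

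Plasma cell genes stood higher in the high arm. Of 11 markers 9 were separated upward and none downward, and their median of 1.55 became 1.47 without female replicate 5. Igha, the constant region of IgA, the antibody of mucosal secretions, stood at 1485 and 1563 CPM in high females and 2240 and 3508 CPM in high males. In low females it stood at 570.5 and 315 CPM and in low males at 548 and 1068 CPM. The groups did not overlap, and the log2 difference was 1.74 ± 0.26 (adjusted p = 0.141). Igkc, the kappa light chain, averaged 1582 and 483 CPM (1.62 ± 0.25, adjusted p = 0.147), and Jchain, which joins IgA dimers, 492 and 154.2 CPM (1.58 ± 0.34, adjusted p = 0.173). Mzb1, a chaperone of antibody assembly, averaged 9.45 and 2.997 CPM (1.56 ± 0.23, adjusted p = 0.141). All 4 genes were called on the continuous scale over 10 libraries, with adjusted p from 0.0218 for Igha to 0.0399 for Igkc, and none of the 4 over 9. Pigr, the epithelial receptor that carries IgA into the lumen, differed by 0.24 ± 0.14. Xbp1 and Sdc1, which the epithelium also expresses, differed by 0.21 ± 0.11 and -0.11 ± 0.11.

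B cell markers were higher in 11 of 11 genes tested, beside 45.5% of all genes, with a median of 1.12 (0.76 without female replicate 5) and 4 separated upward. Cd79a, a chain of the B cell receptor, averaged 13.0 and 5.59 CPM (1.22 ± 0.29, adjusted p = 0.189). Among 18 T cell and cytotoxic lymphocyte markers 9 were separated upward (6 with TMM-scaled library sizes), and the median of 0.58 became 0.94 without female replicate 5. Cd4 averaged 4.35 and 1.83 CPM (1.22 ± 0.35, adjusted p = 0.281), whereas Cd3e averaged 2.10 and 1.96 CPM (0.11 ± 0.37) and Cd8a 3.92 and 2.89 CPM (0.47 ± 0.50). The summed T cell markers stood at 46.8 CPM in female replicate 5, the highest of the low arm, against 34.7 to 56.5 CPM in the high arm, while its summed B cell markers, at 9.71 CPM, were the lowest.

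Proteases and inhibitors of matrix remodelling stood higher, with a median of 1.18 (0.91 without female replicate 5) and 7 of 20 genes separated upward. Mmp10, stromelysin 2, stood at 15.5 and 9.13 CPM in high females and 6.48 and 16.9 CPM in high males, against 2.50 and 0.294 CPM in low females and 2.47 and 1.83 CPM in low males. The arms did not overlap, and the log2 difference of Mmp10 was 2.72 ± 0.54 (adjusted p = 0.167). Mmp13, a collagenase, averaged 13.8 and 2.52 CPM (2.38 ± 0.64), and Mmp3 5.65 and 1.28 CPM (2.10 ± 0.80). Ptgs2, the inducible cyclooxygenase, had the largest difference of 14 prostaglandin genes tested. It stood at 171 and 14.7 CPM in high females and 90.2 and 25.0 CPM in high males, and at 9.21 and 0.49 CPM in low females and 1.17 and 13.9 CPM in low males. The arms of Ptgs2 met closely, at 14.7 against 13.9 CPM (3.54 ± 1.08, adjusted p = 0.314). The median of the prostaglandin list was 0.31 (0.14 without female replicate 5), and 3 of its genes were separated upward and none downward on plain CPM, against 1 upward and 1 downward with TMM-scaled library sizes. Among 18 hypoxia and glycolysis genes 6 were separated upward, with a median of 0.11 (0.12). Slc16a3, a lactate exporter, averaged 26.9 and 11.6 CPM (1.22 ± 0.25, adjusted p = 0.167) and rose on the continuous scale (adjusted p = 0.0134 over 10 and 0.0351 over 9 libraries). Pfkfb3, a glycolytic activator, averaged 23.6 and 10.8 CPM (1.17 ± 0.31). Ldha and Vegfa differed by -0.08 ± 0.17 and 0.09 ± 0.13.

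Genes of the mature colonocyte had differences below 0 more often than above, and several of these differences hung on the library without S100a8. Among 32 absorptive colonocyte genes 24 had a log2 difference below 0, beside 54.5% of all genes in the same fit, with a median of -0.19 (-0.15 without female replicate 5), 1 was separated upward and 1 downward (1 and 2 with TMM-scaled library sizes). Scnn1g was separated upward and had the highest difference of the list (1.68 ± 0.63, adjusted p = 0.446). It stood at 2.20 and 1.28 CPM in high females and 3.24 and 3.84 CPM in high males. In low females it stood at 1.20 and 0.147 CPM and in low males at 0.260 and 1.39 CPM. With any 1 library left out its difference ran from 1.275 to 2.409. Guca2a, the hormone guanylin, was separated downward on plain CPM, averaging 706 CPM in the high and 1197 CPM in the low arm (-0.78 ± 0.27, adjusted p = 0.396). Without female replicate 5, where it stood at 2065 CPM, its difference was -0.43. Car1, a carbonic anhydrase of the colon surface, stood at 14100 CPM in female replicate 5 and at 787 to 2875 CPM in the other 9 libraries. The log2 difference of Car1 was -1.29 ± 0.65 with that library and -0.16 without it. Of 20 genes of ketogenesis and fat oxidation 3 were separated downward, with a median of -0.21 (-0.09 without female replicate 5). Of 27 detoxification enzymes tested 2 were separated downward (3 with TMM-scaled library sizes), with a median of -0.40 that became -0.06 without that library. Aldh1a1, which makes retinoic acid, stood at 638 CPM there and at 40.4 to 143.1 CPM elsewhere. Sult1a1, a phenol sulfotransferase, held more of its difference: it averaged 202 and 327 CPM (-0.76 ± 0.22, adjusted p = 0.285), and -0.57 without female replicate 5, and fell on the continuous scale over 10 libraries (adjusted p = 0.00624) and not over 9 (0.135).

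The 2 genes that fell on the continuous scale both with and without female replicate 5 were Tppp3 and Sepw1. Tppp3, a tubulin-binding protein, stood at 5.71 and 14.0 CPM in high females and 8.63 and 24.4 CPM in high males, and at 21.9 and 26.4 CPM in low females and 28.7 and 45.8 CPM in low males. The arms did not overlap within either sex, although a high male exceeded a low female, and the log2 difference was -1.32 ± 0.37. Tppp3 fell with an adjusted p of 0.0154 over 10 and 0.0400 over 9 libraries. Sepw1, a small selenoprotein of redox defence, averaged 36.4 CPM in the high and 59.5 CPM in the low arm and fell with adjusted p of 0.0014 and 0.0374. Vehicle-treated colons had 16.4 to 49.2 CPM of Tppp3 and 45.9 to 62.8 CPM of Sepw1, so that 3 of 4 high colons lay below that range for Tppp3 and 4 of 4 for Sepw1.

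Secretory, stem and proliferative gene lists had medians within 0.30 of 0, while single members differed by up to 1.45. Of 17 goblet cell genes 2 were separated upward, beside 7.43% of all genes, and the median was 0.28 (0.30 without female replicate 5). Muc2, the main mucin of the colon, differed by -0.21 ± 0.22, while Fcgbp, which crosslinks the mucus, averaged 3057 and 1903 CPM (0.63 ± 0.26, adjusted p = 0.512) and rose on the continuous scale over 10 libraries (adjusted p = 0.0375) and not over 9 (0.439). None of 19 Wnt target and stem cell genes was separated, with a median of 0.17 (0.25), and Lgr5, the receptor that marks crypt stem cells, averaged 8.27 and 4.74 CPM with overlapping arms. Of 23 genes of the regenerative epithelium 1 was separated, Ly6a, which encodes Sca-1, at 730 and 489 CPM (0.55 ± 0.27), none was with TMM-scaled library sizes, and the median was 0.09 (0.10). Ly6a rose on the continuous scale over 10 libraries (adjusted p = 0.0294) and not over 9 (0.532). Cell cycle genes had a difference below 0 in 24 of 25, beside 54.5% of all genes, with differences between -0.39 and 0.06, a median of -0.16 (-0.26) and none separated. Mki67, the proliferation antigen, averaged 209 and 226 CPM (-0.16 ± 0.22). With library totals and no scaling factor the median of the cell cycle list was -0.09 and that of all genes 0.05.

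Stromal markers were examined because a scrape can carry underlying tissue. Fibroblast markers were higher in 18 of 18, beside 45.5% of all genes, with a median of 0.73 (0.44 without female replicate 5). Of the 18, 2 were separated upward, beside 7.43% of all genes. Col1a1, the fibrillar collagen chain, averaged 22.6 and 11.9 CPM (0.97 ± 0.52, adjusted p = 0.673), with 1.47 CPM in female replicate 5. The summed level of the fibroblast markers ran from 154.6 to 404 CPM in the high arm, from 53.9 to 277 CPM in the low arm and from 36.2 to 1598 CPM with vehicle. Endothelial markers had a median of 0.73 (0.50) with none of 12 separated. Smooth muscle markers had a median of -0.44 (-0.63), and none of 11 was separated. Their summed level ran from 112 to 161 CPM in the high and from 88.1 to 332 CPM in the low arm, against up to 7325 CPM in a vehicle-treated colon. Genes of the enteric nervous system, the squamous epithelium, colon position and the circadian clock had medians of 0.06, -0.02, 0.18 and -0.05 (0.06, 0.06, 0.31 and -0.10 without female replicate 5), and none was separated. Single members ran from -0.996 to 1.15 in the position list and from -0.588 to 0.795 in the clock list. The position list pools proximal genes such as Hoxb6 with distal ones such as Hoxb13, so its median cannot show a shift along the colon. Mast cell and eosinophil markers had a median of 0.85 (0.62) and none of 9 separated. Whether more stroma or more blood in the scrape accompanied the neutrophil genes was not tested beyond a fit with a mesenchyme score as covariate, which called 1 gene by edgeR, the immunoglobulin segment Igkv1-117.

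Whether males and females differed in what followed S100a8 was tested by the interaction of arm and sex. None of 16104 genes was called (0%), and 434 had an unadjusted p under 0.05, which is 2.69%. Without the filter on low counts 4 genes were called in 1 direction (0.0158%) and 3 in the other (0.0119%). DESeq2 called 1 gene (0.00621%), Lrg1, a leucine-rich glycoprotein that IL-6 family cytokines induce. Lrg1 stood at 24.2 and 13.4 CPM in high females against 1.12 and 0.245 CPM in low females, and at 15.8 and 14.0 CPM in high males against 7.21 and 10.5 CPM in low males. Its arms were apart in both sexes, by more in females (interaction, males minus females, -3.84 on the log2 scale, adjusted p = 0.9998 in edgeR). With 2 libraries per arm and sex, 1 of the 4 pairs in that comparison holds female replicate 5.

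The 15-week colons took no part in the selection and were used to ask which genes follow S100a8 when it is low. S100a8 there ran from 0.0873 to 1.73 CPM in females and from 0.105 to 4.27 CPM in males, with 2 to 127 counts, so its measurement rests on few reads. The slope of each gene, in log2 units per log2 unit of S100a8 CPM + 0.1, was fitted over the 10 libraries with sex as a covariate. None of 15769 genes was called (0%), and 755 had an unadjusted p under 0.05, 478 with a slope above 0 (3.03%) and 277 below (1.76%). DESeq2 called 18 genes upward (0.114%) and 8 downward (0.0507%), edgeR without the filter on low counts 11 upward (0.0444%), and edgeR with the neutrophil score in place of S100a8 15 upward (0.0951%). Apart from Il1b and Mmp7, the 11 were mostly pancreatic genes such as Cpa1 and Pnliprp1. Of Pnliprp1, male replicate 5 held 163.2 CPM against at most 5.25 CPM in the other 9 libraries.

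Il1b came closest to the threshold. It stood at 0.757, 0.437, 1.62, 0.751 and 7.65 CPM in females 1 to 5 and at 0.211, 1.71, 1.93, 0.41 and 8.83 CPM in males 1 to 5. The highest female and the highest male were the libraries with the most S100a8 of their sex. The slope was 1.07 ± 0.14 with an adjusted p of 0.054, and it stayed between 1.001 and 1.18 when any 1 library was left out. Il1b was called without male replicate 2 (adjusted p = 0.0262) and without male replicate 3 (0.0414). Cxcl2 had a slope of 1.18 ± 0.22 (adjusted p = 0.284), Ptgs2 0.96 ± 0.20 (0.347), and Lcn2 1.49 ± 0.29 (0.284). The slope of Lcn2 fell to 0.95 without male replicate 5, which held 22.7 CPM against at most 3.79 CPM in the other 9. Mmp7, matrilysin, an antimicrobial and Wnt-induced protease, had a slope of 1.33 ± 0.20 (adjusted p = 0.157) and stood at 80.3 CPM in the same male.

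**Figure D4:**
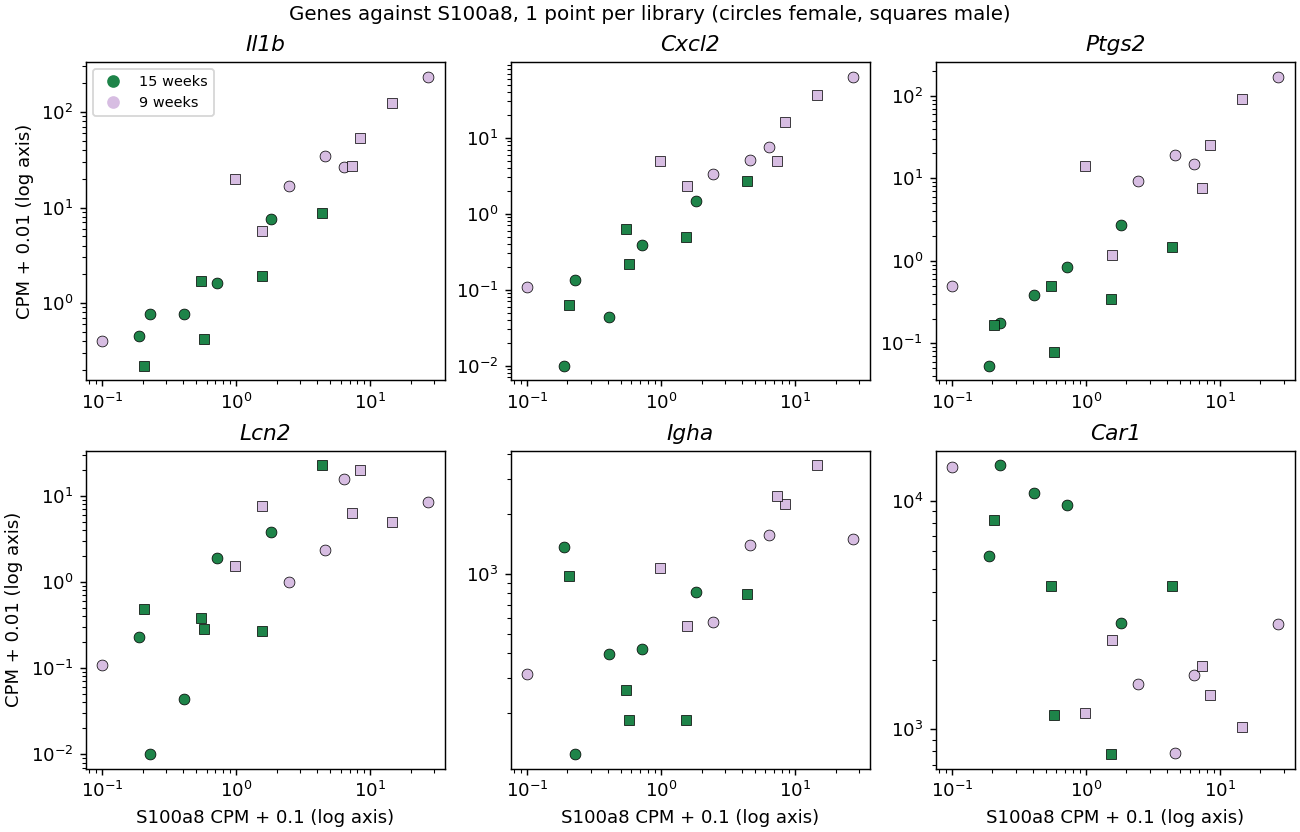
CPM of 6 genes (with 0.01 added) against CPM of S100a8 (with 0.1 added), both on log axes, in the libraries of 15 weeks (green) and 9 weeks (violet), with circles for females and squares for males and 1 point per library. Il1b, Cxcl2 and Ptgs2 climb with S100a8 at both times, and Igha, with a slope of -0.09 at 15 weeks, does not climb within the green points.

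Male replicate 5 stood apart from the other 15-week libraries on several lists as well as on S100a8. The score of the Wnt target and stem cell genes, their mean log2 CPM, was 4.72 there and at most 3.86 in the other 9, and that of the regenerative epithelium genes was 4.65 there and at most 4.08. It also held 363 CPM of the pancreatic gene Ctrb1. Each list count named below is therefore given over 10 libraries and without that male. The part of the library in the slopes was not tested further. Over all genes, slopes above 0 at an unadjusted p under 0.05 made up 3.03% over 10 libraries and 7.35% without that male, and slopes below 0 made up 1.76% and 8.09%.

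Among neutrophil markers besides S100a8, 9 of 13 had a slope above 0 at an unadjusted p under 0.05 over 10 libraries (median slope 0.72) and 5 of 12 without male replicate 5 (0.66). Interferon-gamma-inducible genes counted 9 of 20 (median 0.29) and 10 of 20 without that male (0.31), with Gbp5 at 0.82 ± 0.16. Neutrophil chemoattractants counted 4 of 10 (0.37) and 5 of 10 (0.22), and the IL-1 family 6 of 16 (0.12) and 5 of 15 (0.14). Counts that, like that of the neutrophil markers, were lower by more than 1.5 times without that male were those of the metalloproteinases, from 8 to 4 of 19, with 2 below 0 in place of 0, and of the Wnt target and stem cell genes, from 10 to 4 of 19, with 1 below 0 in place of 0. The same held for regenerative epithelium genes, from 8 to 5 of 23, and for mast cell and eosinophil markers, from 5 of 8 to 2 of 7. It also held for epithelial antimicrobial and oxidase genes, from 7 to 4 of 23, with 2 below 0 in place of 0. Among smaller counts, type I interferon-stimulated genes fell from 3 to 1 of 18, with 1 below 0 in place of 0. Squamous epithelium markers fell from 2 of 9 to 0 of 7, and enteric neuron and glia markers from 2 to 1 of 5. Mcpt1, a mucosal mast cell protease, had a slope of 1.03 and stood at 26.8 CPM in male replicate 5. Plasma cell markers counted 0 of 10 both ways (medians -0.04 and -0.10), with Igha at -0.09 ± 0.19. Monocyte and macrophage markers counted 1 of 18 (0.21) and 0 of 18 (-0.01). Slopes below 0 at the same threshold rose from 3 to 13 of 27 detoxification enzymes without that male (48.1%, beside 8.09% of all genes). Absorptive colonocyte genes went from 1 to 11 of 32 below 0 (34.4%), and from 2 to 5 above. Genes of ketogenesis and fat oxidation went from 2 to 5 of 20 below 0 (25%), and from 0 to 1 above. Colon position genes went from 2 to 5 of 13 above 0 (38.5%, beside 7.35% of all genes), and from 1 to 3 below (23.1%). The part of colon position in these slopes was not tested. Whether the slopes at the 2 times differ was not tested.

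**Figure D5:**
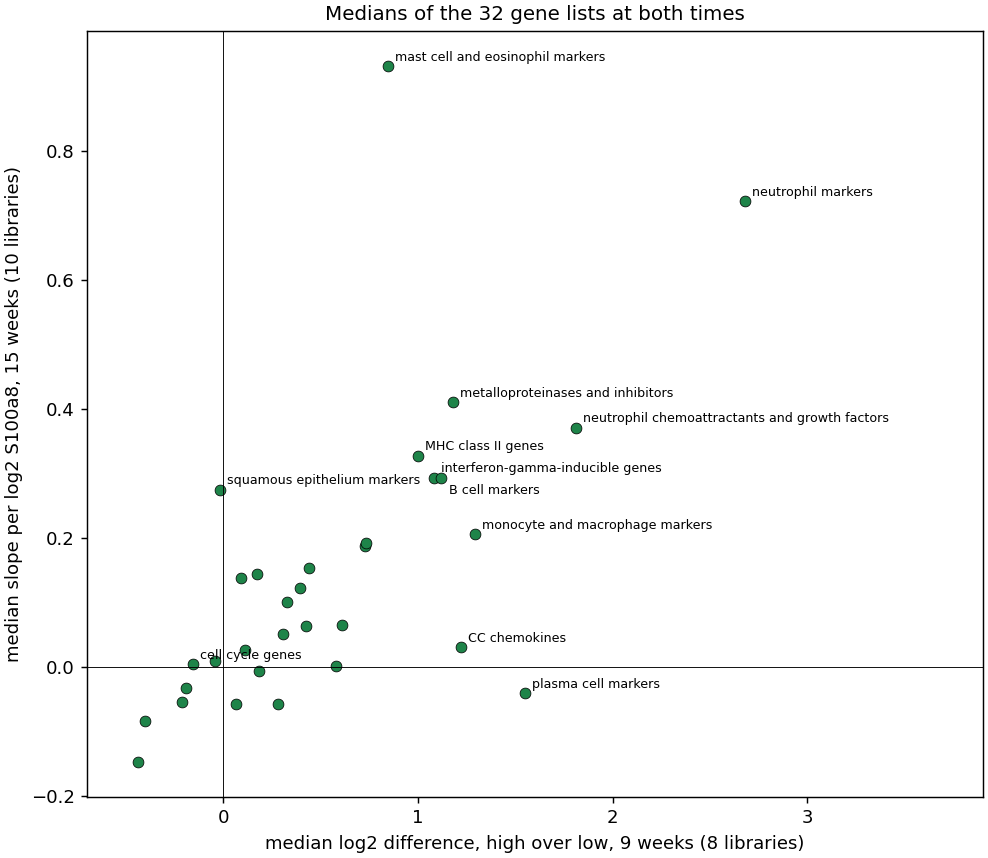
Median slope per log2 unit of S100a8 at 15 weeks (10 libraries) against the median log2 difference of high over low at 9 weeks (8 libraries), 1 point for each of the 32 gene lists. Neutrophil markers stand high on both axes (2.68 and 0.72), and plasma cell markers stand at 1.55 on the 9-week axis and -0.04 on the other.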

How the data were processed

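Poly(A)-selected stranded mRNA libraries of colon scrapes were sequenced by the authors, 1 library per mouse. The authors trimmed reads with Trim Galore, aligned them to the mouse genome (GRCm38, mm10) with STAR and counted them with featureCounts, and the deposited counts are raw counts of 46078 genes. FPKM (StringTie, run by the authors) served here only for the minimum level. The deposited TPM values were not used. The submitters' processing notes name bcl2fastq 2.20.0.422.

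CPM is 1e6 times a count over the library's total. The arms, members and gene lists (32 lists, 585 genes) were chosen with earlier results of these data known. Because S100a8 set the arms, a p-value measures how far a gene follows S100a8 among these mice, and not an effect of treatment. Genes were tested with edgeR 4.0.16 in R 4.3.3 (TMM, filterByExpr, quasi-likelihood F test, Benjamini-Hochberg adjustment over all genes tested), with sex as a covariate. A call needed an adjusted p under 0.05, a log2 difference beyond 0.4 and a mean FPKM of at least 1. The common biological coefficient of variation of the 8 libraries was 0.259, with 5 residual degrees of freedom. DESeq2 1.42.0, other scalings, filters and sample sets were alternatives. Lists were summarised by counts and medians only. List scores were mean log2 CPM with a prior count of 2 (edgeR, with limma 3.58.1 loaded).

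The named genes were to be the called genes of each list and the largest calls, together with the best known member of a list with no call. Since the fit of the arms called none, list members were named as the best known ones or after their values were seen. The scripts were tested on simulated data. Counting error alone limits genes near 0 counts, duplicate reads were not removed, and 3 counts per library was taken as the floor. Promoter sequences are from RefSeq, and 32 of the 47 genes called in both slope fits matched a symbol there. No 2 libraries of a group were copies, with Spearman correlations from 0.939 to 0.994.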

Additional observations from a re-analysis of the deposited data

Results flagged for a closer look

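Dixon's ratio (the gap of the highest or lowest library to its neighbour over the range of the group of 5) was taken for 226 values, the log2 CPM of 81 genes and the scores of 32 lists in each sex at 9 weeks. It was above 0.71 for 16 of them, and chance alone gives about 1 in 20. In 11 of the 16 the library apart was female replicate 5 and it was the lowest: Osmr (ratio 0.731), H2-Ab1 (0.725), Cd74 (0.786), Pigr (0.754), Scnn1g (0.748), Fcgbp (0.745), Ly6a (0.73), Mmp3 (0.711) and Col1a1 (0.814), and the scores of the MHC class II genes (0.828) and of the prostaglandin genes (0.801). In female replicate 2 the score of the Wnt target and stem cell genes was the highest of the females (0.887), and the pancreatic gene Ctrb1 was found, at 0.413 CPM, in that female and in no other female of 9 weeks (ratio 1), beside 0.0736 to 1.04 CPM in 3 of the 5 males. Among the males, replicate 5 was lowest for Duox2 (0.756), and replicate 4 was lowest for Fcgbp (0.754) and highest for the cell cycle score (0.749). No gene differed between the sexes in its high over low difference by edgeR's test of the interaction.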

How the results depend on the processing

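Between high and low colons the number of genes called, 0, was 288 with DESeq2 (262 higher, 26 lower), 373 with no filter on low counts (323 higher, 50 lower), 500 with continuous S100a8 over 10 libraries, 61 over 9 (this fit, the one on library totals and the 15-week list counts without male replicate 5 were chosen after seeing the data), and 1 with the mesenchyme covariate. It was 0 with RLE factors, library totals, no FPKM minimum, all 30 libraries and arms ranked on TMM-scaled sizes. It was also 0 with the replicate block, which cannot decide because it fits nearly as many terms as there are libraries. Leaving out 1 library gave 0 to 5 calls: 5 without female replicate 3 (Gbp2, Cxcl9 and 3 immunoglobulin segments), 1 without female replicate 5 (Lyz2) and 2 without male replicate 2 (Ighg2b and Igkv1-117). Why the filter and the tool change the count was not tested. At 15 weeks the count of 0 became 26 with DESeq2, 11 with no filter and 15 with the neutrophil score in place of S100a8. The 11 were Il1b, Mmp7, Gp2 and the pancreatic genes Pnlip, Pnliprp1, Cpb1, Cela2a, Cpa1, Try4, Try5 and Prss2. Male replicate 5 held 163.2 CPM of Pnliprp1 and 29.96 CPM of Gp2, against at most 5.25 and 1.18 CPM in the other 9 libraries. Among the 15 were Il1b, Lcn2, Notum, Pnliprp1 and Gp2. The count ran from 0 to 5 without 1 library. It was 5 without female replicate 2 (Slfn2, H2-DMa, Tap1, H2-Q6 and H2-Q7), 1 without male replicate 2 (Il1b) and 3 without male replicate 3 (Il1b, Plat and Mmp7). The interaction count of 0 became 1 with DESeq2 (Lrg1), 7 with no filter and 0 to 5 without 1 library, 5 without female replicate 3 (Ly6c1, Aqp4, Prkacb, Hoxa10 and Irf7).

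Same-numbered males and females did not deviate together (correlations from -0.294 to 0.0526 at 9 weeks and from -0.244 to 0.0484 at 15 weeks, none best with its own number). Replicate numbers were therefore not treated as pairs. With so few mice per group, the check cannot exclude a batch shared by number. The replicate block called 0 genes in both fits. On the arms it left almost no residual degrees of freedom, so it had little room to call any gene and nothing is concluded from it.

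Of 1501 values of single genes under other settings 14 changed sign, 1318 kept direction and side of the threshold, and the rest passed the threshold in place of missing it. Continuous S100a8 gave Mki67 0.0380 and Myh11 0.10 over 10 libraries and Car1 0.28 and Muc2 0.19 over 9. The block, with its few residual degrees of freedom, gave Ifit1 -0.0240, Muc2 0.45, Lgr5 -1.88, Myh11 1.98 and, at 15 weeks, Lcn2 -2.35. Without 1 library, Myh11 ran from -1.35 to 0.64 (above 0 without female replicate 3), Mki67 from -0.30 to 0.0926 (above 0 without male replicate 4) and the Igha slope at 15 weeks from -0.39 to 0.18 (above 0 without female replicate 2, at 0.0887, and without male replicate 1). That slope was 0.00339 with a pseudocount of 1.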

Other observations

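Digestive enzymes of the exocrine pancreas were most abundant in 1 of the 15-week colons. Ctrb1, chymotrypsinogen B, stood at 363 CPM in male replicate 5, at 0.631 CPM in female replicate 1, at 0.185 CPM in male replicate 3 and at 0 in the other 7 libraries of 15 weeks. Pnliprp1, a pancreatic lipase-related protein, stood at 163.2 CPM in the same male and at most 5.25 CPM in the other 9. That male had the highest S100a8 of the 15-week colons, 4.27 CPM. At 9 weeks, Pnliprp1 stood at 12.8 CPM in high female replicate 2, 10.5 CPM in high male replicate 1, 13.8 CPM in the middle male and 18.3 CPM in low male replicate 4, and at 0.0443 to 1.03 CPM in the other 6, which does not follow the arms. The source of these transcripts was not tested.

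Among 32 genes called in both slope fits of 9 weeks and matched to a RefSeq promoter, 12 held GAGGAA in the 250 bases before the start, 37.5% beside 23.3% of all promoter stretches, and 7 held TTGCNNAA, 21.9% beside 9.56%. The NF-kB motif was in 3 (9.38% beside 1.41%), TTCNNNGAA in 5 (15.6% beside 7.02%) and TGANTCA in 1 (3.12% beside 6.75%). These are shares of letters in genes chosen for their values, and no test was made of them. The shares of the called genes count genes, while those of all promoters count stretches, and a gene can have several stretches. A gene with several stretches has more chances of a match, so the gene shares can be too high beside the others.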
